A study of Homo sapiens with 3 samples.

Results

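The genes described here serve the NRF2 antioxidant response, the defence against ferroptosis and the storage of iron in a breast cancer cell line. They were chosen by identifier from a fixed list of 10 genes, and all 10 were among the 24916 genes with a value on every array. The list holds NFE2L2, KEAP1, NQO1, HMOX1, GCLC, GCLM, SLC7A11, TXNRD1, GPX4 and FTH1. The values come from MDA-MB-231-Luc, a derivative of the human breast cancer line MDA-MB-231, a widely used model of triple-negative disease. The cells were a transduced pool that carried the lentivirus TRCN0000047025, whose short hairpin RNA targets RRAS2, a small GTPase of the RAS family. Total RNA of exponentially growing cells was measured on 3 Affymetrix arrays, labelled as biological replicates 1 to 3 of 1 group. All 3 arrays share 1 hairpin and 1 pool, so their spread holds no difference between hairpins or pools. Control cells are named in the series design, but their arrays were not analysed here, so no effect of RRAS2 loss on any of the 10 genes was computed. The identity of the cells and the depth of the knockdown were not checked, because only the identifiers of these 10 genes were paired with names here.

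NRF2, the product of NFE2L2, is a transcription factor that switches on detoxifying and antioxidant genes. In unstressed cells KEAP1 binds NRF2 and directs it to degradation, and oxidants or electrophiles release it, so that the activity of NRF2 is set largely at the protein level and not by its mRNA. Released NRF2 pairs with small MAF proteins and binds a short DNA sequence called the antioxidant response element. Ferroptosis is a form of cell death driven by iron-dependent peroxidation of membrane lipids. Cystine import, glutathione synthesis and the enzyme GPX4 hold it back, while ferritin keeps iron in a form that does not feed the peroxidation.

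The core of the antioxidant response element was searched for in RefSeq promoter windows, because it is the sequence through which NRF2 acts. Each window ran from 250 bases before an annotated gene start to 50 bases after it, in build GRCh38.p14, and a gene can have several starts, numbered here in the order of the table. Of the 10 genes, 7 matched the table by symbol, with 12 windows between them. HMOX1, SLC7A11 and FTH1 did not match. The core was written as TGACNNNGC, where N is any base, and both strands were read. No other motif was searched, so overlap with another motif was not examined. It was found in 4 of the 12 windows, belonging to 3 of the 7 genes, GCLM, TXNRD1 and KEAP1. For comparison, 13.3% of the 35116 windows of the whole table held it, as did 16.1% of the 27305 genes. A gene with more windows has more chances to hold a core, and the windows of the first and second starts of GPX4 overlap. No test of these shares was made. A match describes letters and does not show that NRF2 binds there, and a window without a match gives no information on NRF2 at that gene. Response elements can also lie farther upstream than these windows reach.

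The 6 matches are printed so that the cores and their flanks can be compared. Each is given on the strand where the core reads TGACNNNGC, with the core in capitals and 10 bases in lower case on either side.
GCLM, chr1:93909446-93909474, plus strand: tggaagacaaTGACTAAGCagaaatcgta
KEAP1, nearer match, chr19:10502784-10502812, plus strand: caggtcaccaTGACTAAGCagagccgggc
KEAP1, farther match, chr19:10502807-10502835, minus strand: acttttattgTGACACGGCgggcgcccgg
TXNRD1, second start, chr12:104286920-104286948, minus strand: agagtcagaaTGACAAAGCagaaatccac
TXNRD1, first start, farther match, chr12:104215670-104215698, plus strand: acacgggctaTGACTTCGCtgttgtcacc
TXNRD1, first start, nearer match, chr12:104215761-104215789, minus strand: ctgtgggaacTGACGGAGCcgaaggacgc

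GCLM and KEAP1 carried the same 9-letter core, TGACTAAGC, close to an annotated start and on the strand opposite to the gene. The core lay from 34 to 26 bases before the start of GCLM and from 31 to 23 bases before the second start of KEAP1. These 2 pieces were identical at 17 of 29 positions, with an unbroken run of 13. The core at the second start of TXNRD1 lay from 102 to 94 bases before it. That piece matched the GCLM piece at 19 of 29 positions, with an unbroken run of 11, and the nearer KEAP1 piece at 17. All other pairs of pieces were identical at 9 to 13 of 29 positions. The fixed letters of the core match in every pair, because the pieces were chosen for them. How many positions unrelated pieces share was not computed. At the first start of TXNRD1, 1 core lay from 99 to 91 bases before the start. The other began 8 bases before it and ended on the first transcribed base. The farther core of KEAP1 lay from 54 to 46 bases before its second start.

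**Figure D1:**
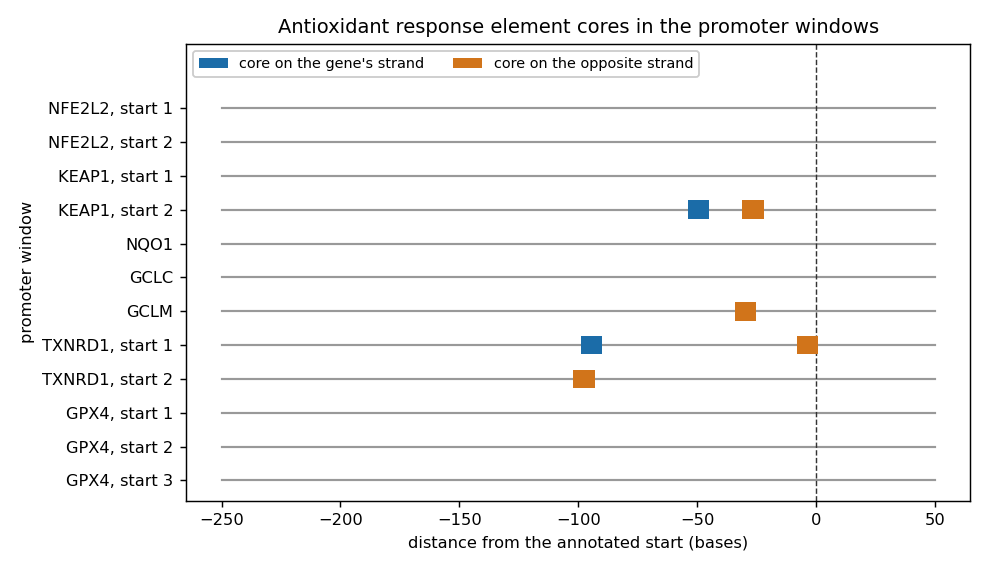
Antioxidant response element cores in the 12 promoter windows of 7 genes. The horizontal axis is the distance from the annotated start in bases, grey lines are the windows, and boxes are matches on the gene's own strand (blue) or the opposite strand (orange). The 6 matches lie in 4 windows, those of GCLM, the second start of KEAP1 and both starts of TXNRD1.

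Each array value is a log2 expression level made by the authors with RMA. The table does not state its scale, and log2 is read from the method and the range of the values. All folds rest on that reading. Each gene is read by its own probes, so a brighter signal for a gene than for another does not show more transcript, and the 10 genes are not ranked against each other.

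Of the 10 genes, 10 had signals above the median of the array on each of the 3 arrays, against 48.6% of all genes. The array medians were 6.84, 6.81 and 6.80 in replicates 1, 2 and 3. The smallest distance above the median was that of GCLM, at 1.22 log2 units in replicate 1, 1.27 in replicate 2 and 1.34 in replicate 3. For 7 of the 10 genes, signals exceeded the 75th percentile of the array on all 3 arrays, against 23.9% of all genes. The 3 others were HMOX1, GCLC and GCLM. Signals of NQO1, SLC7A11 and GPX4, 3 of the 10, lay above the 90th percentile of the array on all 3 arrays, against 9.32% of all genes. The median and the percentiles divide brighter from dimmer signals and are not a measured background. With 1 group and no control arrays, these counts carry no test. The 10 genes were also chosen with earlier results of these data known.

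**Figure D2:**
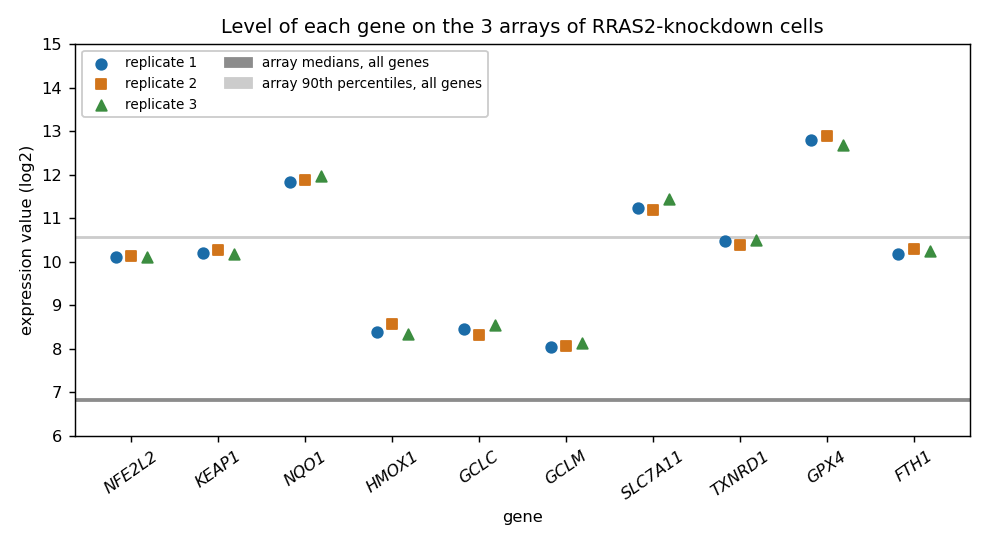
Log2 expression value of each gene (vertical axis) on replicate 1 (circles), replicate 2 (squares) and replicate 3 (triangles), with grey bands for the range of the array medians and of the 90th percentiles over all genes. All points lie above the medians, and those of NQO1, SLC7A11 and GPX4 also lie above the 90th percentiles.

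The regulators had the smallest ranges of the 10 genes. NFE2L2 (ENSG00000116044) was at 10.11 in replicate 1, 10.14 in replicate 2 and 10.10 in replicate 3, a mean of 10.12 ± 0.019 (SD, n = 3). Its values spanned 0.035 log2 units, a 1.02-fold difference between the highest and the lowest array, and 0.061 after the arrays were centred on their medians. KEAP1 (ENSG00000079999), the substrate adaptor of the ubiquitin ligase that marks NRF2 for degradation, was at 10.21, 10.26 and 10.18 in the same order, a mean of 10.22 ± 0.038 (SD, n = 3). Replicate 2 was the highest array for both genes, by margins below the 0.085 median SD of genes of like level. Between 86.0% and 87.5% of all genes had lower signals than these regulators, whichever array was taken.

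NQO1 and HMOX1 are classical target genes of NRF2. NQO1 (ENSG00000181019), which reduces quinones and is often used as a readout of NRF2 activity, was at 11.82 in replicate 1, 11.88 in replicate 2 and 11.96 in replicate 3. NQO1 averaged 11.89 ± 0.074 (SD, n = 3). Replicate 1 was the lowest and replicate 3 the highest, a 1.11-fold range. The NQO1 signal exceeded that of 97.0%, 97.1% and 97.5% of all genes in replicates 1, 2 and 3. HMOX1 (ENSG00000100292), the inducible heme oxygenase that opens the heme ring and frees its iron, was at 8.38, 8.56 and 8.35 (mean 8.43 ± 0.115, SD, n = 3). Replicate 2 was the highest, while replicates 1 and 3 differed by 0.032 log2 units. Its signal exceeded that of 67.0% to 69.5% of all genes. HMOX1 is also controlled by the repressor BACH1, which was not examined. The arrays on which NQO1 and HMOX1 were highest were not the same, replicate 3 for NQO1 and replicate 2 for HMOX1.

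Glutathione is made in steps of which the first, joining glutamate to cysteine, is catalysed by a dimer of the GCLC and GCLM products. GCLC (ENSG00000001084), the catalytic subunit, was at 8.45 in replicate 1, 8.32 in replicate 2 and 8.54 in replicate 3. Its mean was 8.43 ± 0.107 (SD, n = 3). GCLM (ENSG00000023909), the modifier subunit that makes the enzyme more efficient, was at 8.05, 8.07 and 8.14 (mean 8.09 ± 0.048, SD, n = 3). Replicate 3 was the highest array for both subunits. The lowest was replicate 2 for GCLC and replicate 1 for GCLM. The range of GCLC was 0.213 log2 units (1.16-fold) and that of GCLM 0.093 (1.07-fold). From replicate 1 to replicate 2, GCLC differed by -0.124 and GCLM by 0.024 log2 units, so the subunits did not keep the same order of arrays. The GCLM difference was smaller than the 0.098 median SD of genes of like level, so the unlike order rests on a small difference.

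SLC7A11 (ENSG00000151012), the transport chain of the xCT antiporter that exchanges glutamate for cystine, had the widest range of the 10 genes. It was at 11.24 in replicate 1, 11.19 in replicate 2 and 11.44 in replicate 3, with a mean of 11.29 ± 0.136 (SD, n = 3). Replicate 3 stood above the other arrays, by 0.256 log2 units over replicate 2 and by 0.207 over replicate 1. The full range was 1.19-fold. The signal exceeded that of 94.5%, 94.1% and 95.5% of all genes in replicates 1, 2 and 3.

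TXNRD1 (ENSG00000198431) encodes the selenoprotein thioredoxin reductase that keeps thioredoxin reduced in the cytosol. It was at 10.48 in replicate 1, 10.38 in replicate 2 and 10.51 in replicate 3, and the mean was 10.46 ± 0.064 (SD, n = 3). Replicates 1 and 3 differed by 0.025 log2 units and replicate 2 was the lowest. The order of the arrays for TXNRD1 was that of GCLC and SLC7A11, with replicate 3 highest and replicate 2 lowest, except that replicate 1 was highest for TXNRD1 after quantile normalisation. In the genes whose windows held a core, the order was not shared, since GCLM was lowest in replicate 1 and KEAP1 was highest in replicate 2. The full ranges of GCLM and KEAP1, 0.093 and 0.074 log2 units, were below the median SDs of genes of like level, 0.098 and 0.085. Any link between the cores and the order of the arrays was not tested.

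GPX4 (ENSG00000167468), the selenoprotein that reduces lipid peroxides with glutathione, was at 12.80 in replicate 1, 12.88 in replicate 2 and 12.68 in replicate 3, averaging 12.79 ± 0.100 (SD, n = 3). Replicate 3 was the lowest, 0.119 log2 units below replicate 1 and 0.199 below replicate 2. At least 99.2% of all genes had lower signals on each array. Replicate 3 was the highest for SLC7A11 and the lowest for GPX4, as deposited and under all 3 other normalisations run. Both places are common. Of the genes above the median on all 3 arrays, 40.5% were highest in replicate 3, and 24.5% were highest in replicate 2 and lowest in replicate 3. Neither the SD of SLC7A11 nor that of GPX4 exceeded the 95th percentile of the SDs of genes of like level.

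FTH1 (ENSG00000167996), the heavy chain of ferritin, carries the ferroxidase activity that loads iron into the ferritin shell. It was at 10.17 in replicate 1, 10.30 in replicate 2 and 10.24 in replicate 3. FTH1 averaged 10.24 ± 0.064 (SD, n = 3). Replicate 1 was the lowest and replicate 2 the highest, a 1.09-fold range. Ferritin is regulated by iron largely at translation, so the mRNA level does not give the amount of the protein. FTH1 has many processed pseudogenes of near-identical sequence, and whether its probes also read them was not tested.

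The 10 genes fell into those highest in replicate 2 and those highest in replicate 3. Replicate 2 was the highest array for 5 of them, NFE2L2, KEAP1, HMOX1, GPX4 and FTH1, against 35.1% of the 12111 genes above the median on all 3 arrays. Replicate 3 was the highest for the other 5, NQO1, GCLC, GCLM, SLC7A11 and TXNRD1, against 40.5%, but TXNRD1 was highest in replicate 1 after quantile normalisation. Replicate 1 was the highest for 0 of the 10, against 24.4%. The order with replicate 2 highest and replicate 3 lowest was seen in 4 genes, NFE2L2, KEAP1, HMOX1 and GPX4, against 24.5% of the brighter genes, but replicate 1 was the lowest for NFE2L2, KEAP1 and HMOX1 after the arrays were centred on their medians. The reverse order was seen in 3 genes, GCLC, SLC7A11 and TXNRD1, against 24.3%. NQO1 and GCLM were highest in replicate 3 and lowest in replicate 1, an order held by 16.2% of the brighter genes. FTH1 was highest in replicate 2 and lowest in replicate 1, as were 10.7%. Some of these shares lay near those of all brighter genes and others did not. With only 10 genes and no test made, none of them is a result about these genes.

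**Figure D3:**
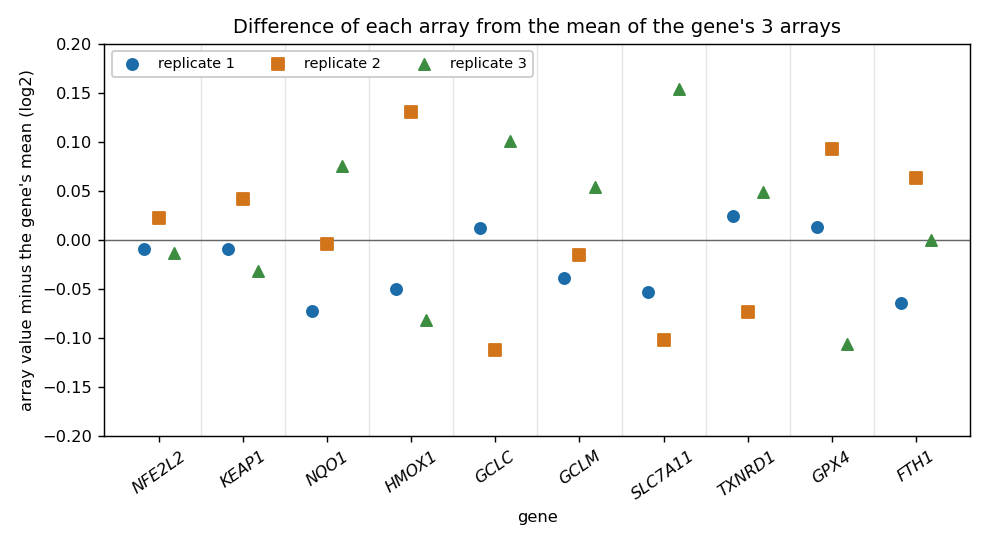
Difference of each array from the mean of the gene's 3 arrays, in log2 units (vertical axis), for replicate 1 (circles), replicate 2 (squares) and replicate 3 (triangles). In the deposited values, replicate 2 is the top point for 5 genes and replicate 3 for the other 5, and the widest spread is that of SLC7A11, at 0.256 log2 units.

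Differences between arrays were then summarised over the 10 genes. The range over the 3 arrays exceeded 0.5 log2 units (1.41-fold) for 0 of the 10, against 2.77% of the brighter genes. It exceeded 0.2 log2 units for 3 of the 10, HMOX1, GCLC and SLC7A11, against 38.9%. GPX4 lay just inside that limit, at 0.199. The median SD of the 10 genes was 0.069, and that of the 12111 brighter genes 0.087. For replicates 1 and 2 the median absolute difference was 0.074 log2 units over the 10 genes and 0.074 over the brighter genes. It was 0.076 against 0.107 for replicates 1 and 3, and 0.101 against 0.129 for replicates 2 and 3. Replicate 3 was the farthest from the middle value in 4 of the 10 genes, against 50.0% of the brighter genes. Replicate 2 was the farthest in 5, against 29.9%, and replicate 1 in 1, against 20.1%. That gene was FTH1, whose replicates 1 and 2 lay almost equally far from the middle.

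Spread changes with signal, so each gene was also set beside the genes in the same band of mean level, of 10 equal bands with 2491 or 2492 genes each. Of the 10 SDs, 5 lay below the median of their band and 5 above it. SLC7A11 stood highest, with an SD above that of 86.6% of its band, and GPX4 followed at 72.2%. After quantile normalisation the SD of GPX4 was 0.063 and its range 0.121 log2 units, and 45.3% of its band had a lower SD. HMOX1, GCLC and NQO1 lay near the middle, at 60.1%, 55.9% and 53.7%. TXNRD1, FTH1, GCLM and KEAP1 lay at 32.8%, 32.4%, 17.1% and 13.7%. NFE2L2 had a smaller SD than all but 3.13% of its band, and in the deposited values it was the 1 gene below the 5th percentile of 0.023. That depended on the scaling. The SD of NFE2L2 was also below the 5th percentile after cyclic loess normalisation, at 0.021 against 0.023. It was 0.025 after quantile normalisation and 0.030 after centring on the medians, above the 5th percentiles of 0.022 and 0.025 found there. None of the 10 exceeded the 95th percentile of its band, as deposited or under the 3 other normalisations run.

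**Figure D4:**
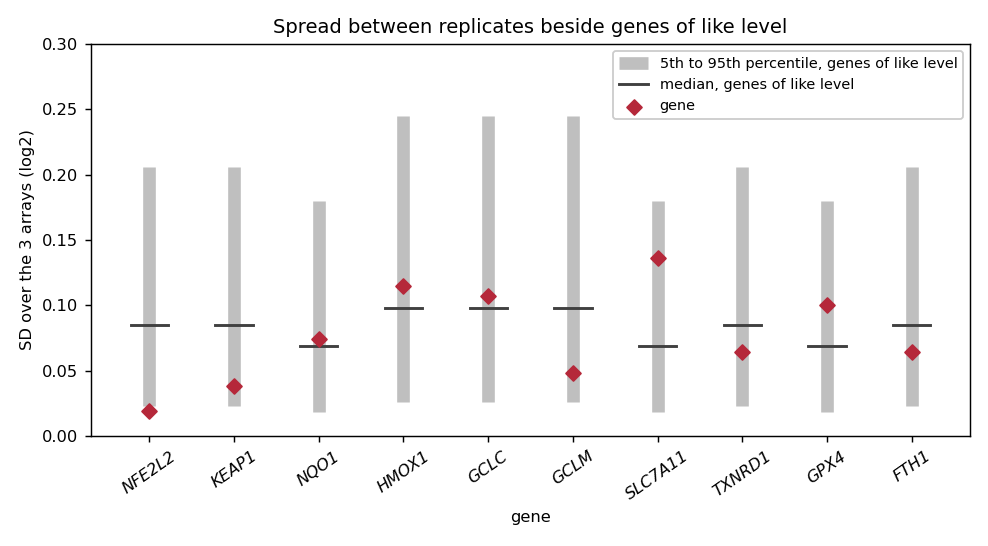
SD over the 3 arrays in log2 units (vertical axis) for each gene (diamonds), with the median (dark line) and the 5th to 95th percentile (grey bar) of the genes in the same band of mean level. In the deposited values NFE2L2, at 0.019, lies just under its bar, and SLC7A11, at 0.136, lies highest but inside its bar.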

How the data were processed

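The authors deposited 1 table of expression values, read here as log2, with a row for each Ensembl gene identifier and a column for each of 3 arrays. Per the submitters' processing notes, it was made with RMA and the affy package, which correct background, normalise arrays to a common distribution and summarise probes per gene. Array model, probe-to-gene definition and genome build are details not given in the sources used here. RMA compresses small differences between dim signals and hides overall changes in RNA content.

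The 10 genes were matched by identifier, and the names are those given with the list. The reference table held an Ensembl identifier for 0 genes, so the pairing was not checked, and the lists of other NRF2, ferroptosis and iron genes and of markers were not used. The members and lists were chosen with earlier results of these data known. All 10 genes are named, and no other gene was named for a like pattern. Levels, SDs and ranges were computed per gene over 3 arrays, beside all 24916 genes, the 12111 above the array median on all 3 arrays, and 10 bands of mean level. No test was made, since the samples form 1 group. Whether the replicates were separate cultures is not stated beyond the word biological. Arrays have no read depth, and their number (n = 3) limits precision. The calculation was tested on simulated data. Promoter windows came from RefSeq, build GRCh38.p14. Python 3.11.15, numpy 2.4.6, pandas 2.3.3, R 4.3.3 and limma 3.58.1 were used.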

Additional observations from a re-analysis of the deposited data

How the results depend on the processing

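All 10 genes lay above the array median after cyclic loess normalisation, and also above the array mean. The count was also 10 after quantile normalisation, but that method keeps the order of genes within each array and could not change it. Centring on the medians, requiring 2 of 3 arrays and leaving out a replicate could not lower the count either. None of these is a check of it. The count with a range over 0.5 log2 units was 0 under the 3 normalisations, and also with 0.3 as the threshold. Leaving out a replicate cannot widen a range. The median SD of 0.069 went from 0.062 (quantile) to 0.086 (centred on medians), and from 0.052 without replicate 3 to 0.071 without replicate 1. With a replicate left out these are SDs over 2 arrays, which tend to be lower than SDs over 3. The median range, a different measure, was 0.137. Replicate 3 was the farthest array for 4 genes as deposited, 6 after quantile normalisation, 3 after centring and 4 after cyclic loess. The farthest array kept its identity under all 3 normalisations for 4 genes, the highest array for 9 and the lowest for 7. Mean levels shifted by at most 0.008 log2 units after quantile and 0.004 after cyclic loess normalisation, and by at most 0.077 with 1 replicate left out. With 3 arrays the last shift is always below 1 SD. The 2 normalisations move the arrays towards each other and leave a gene's mean nearly unchanged, so their small shifts are no check either. The SDs within bands of mean level were recomputed under the 3 normalisations, an alternative chosen after the data were seen. The count of other pathway genes was not run, for want of names. No paired analysis was possible because the arrays used here belong to 1 group. The summarised values carry no background estimate, so precision near background was not judged.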
